A study of Oryctolagus cuniculus with 24 samples.

Results

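Keratocytes are the cells that live between the collagen layers of the corneal stroma. RNA sequencing of such cells, grown in primary culture from rabbit, was used to compare cultures exposed to transforming growth factor β1 (TGF-β1) with cultures exposed to fetal bovine serum (FBS). The comparison takes all 8 TGF-β1 libraries and all 8 FBS libraries, 16 of the 24 libraries of the series, and no library was left out. The other 8 libraries are serum-free cultures, which entered the fit for the spread between libraries and are given as a reference level. Every gene with enough counts was tested, which was 13308 of 23428 genes in the deposited table.

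All cultures came from keratocytes at passage 1 grown for 6 days on glass coated with collagen, and all of them spent the first day in defined serum-free medium. The TGF-β1 cultures, named myofibroblast in the labels, received 5 ng/mL TGF-β1 in that serum-free medium at the changes on day 1 and day 3. The FBS cultures, named fibroblast, stayed serum-free at the day 1 change and received DMEM with 10% FBS on day 3. Serum, base medium and days of exposure therefore differ together between the groups, and their parts in any difference below cannot be told apart. The labels do not say whether replicates are separate animals or separate cultures. The p-values thus measure the spread between libraries within the conditions, estimated over all 24 libraries, and that spread may be technical.

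TGF-β1 is a secreted signal that is stored in the matrix in a latent form, and it acts through a receptor pair that phosphorylates SMAD2 and SMAD3. In the injured cornea it is known for turning stromal cells into myofibroblasts, which contract the wound and lay down the opaque matrix of a scar. Serum carries many growth factors and lipids, and corneal stromal cells in serum are known to lose the keratocyte phenotype and to divide as fibroblasts. Bone morphogenetic proteins (BMPs) belong to the same ligand family but signal through SMAD1, SMAD5 and SMAD9.

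Total counts ran from 15410285 to 20911192 per TGF-β1 library and from 15659561 to 22528261 per FBS library. On log2 CPM (counts scaled to library size), libraries correlated at 0.965 to 0.989 within TGF-β1, 0.953 to 0.993 within FBS and 0.819 to 0.851 between the groups. The first principal component of the 16 libraries (79.4% of the variance) separated the conditions. The next (7.84%) separated, in both conditions, libraries that the columns number 5 to 8 (replicates 1 to 4, here the first set) from those numbered 9 to 12 (replicates 5 to 8, the second set). FBS replicates 5 and 6 stood apart within the second set, at 46.3 to 73.8 in squared count difference over counting variance per gene from replicates 7 and 8. Those replicates differed from each other by 3.1. Of 250 genes examined by name, 68 had log2 fold changes that differed by more than 1 between the sets, and 6 (ALDH1A1, COL18A1, COL4A2, KERA, MYL9 and THY1) had opposite signs. Values within the sets are given for many of these, and what sets the sets apart was not tested.

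The 2 RNA populations differed over most of the transcriptome. edgeR's quasi-likelihood test called 9757 genes (73.3% of those tested) at an adjusted p under 0.05, 4917 higher with TGF-β1 (36.9%) and 4840 lower (36.4%). A further size rule of at least 2-fold left 36.1% of the genes, 2468 higher (18.5%) and 2338 lower (17.6%), and 403 (3.03%) and 464 (3.49%) differed by at least 8-fold. The groups did not overlap in 46.2% of the genes. In 2981 of these (22.4% of all) the 8 TGF-β1 libraries lay above the 8 FBS libraries, and in 3164 (23.8%) below. These shares are the background for the gene lists that follow, since a list of any kind would hold many called members here. Collagen took a larger share of the TGF-β1 RNA. COL1A1 and COL1A2, the chains of type I collagen, took 10.5% ± 0.934 (SD, n = 8) of all TGF-β1 counts and 1.09% ± 0.322 of the FBS counts. Libraries were scaled by TMM, trimmed means of log ratios between libraries. Scaled by total counts alone, the split of calls moved from 50.4% higher to 31.5% higher and the median log2 fold change of all genes fell from 0.00692 to -0.388.

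**Figure D1:**
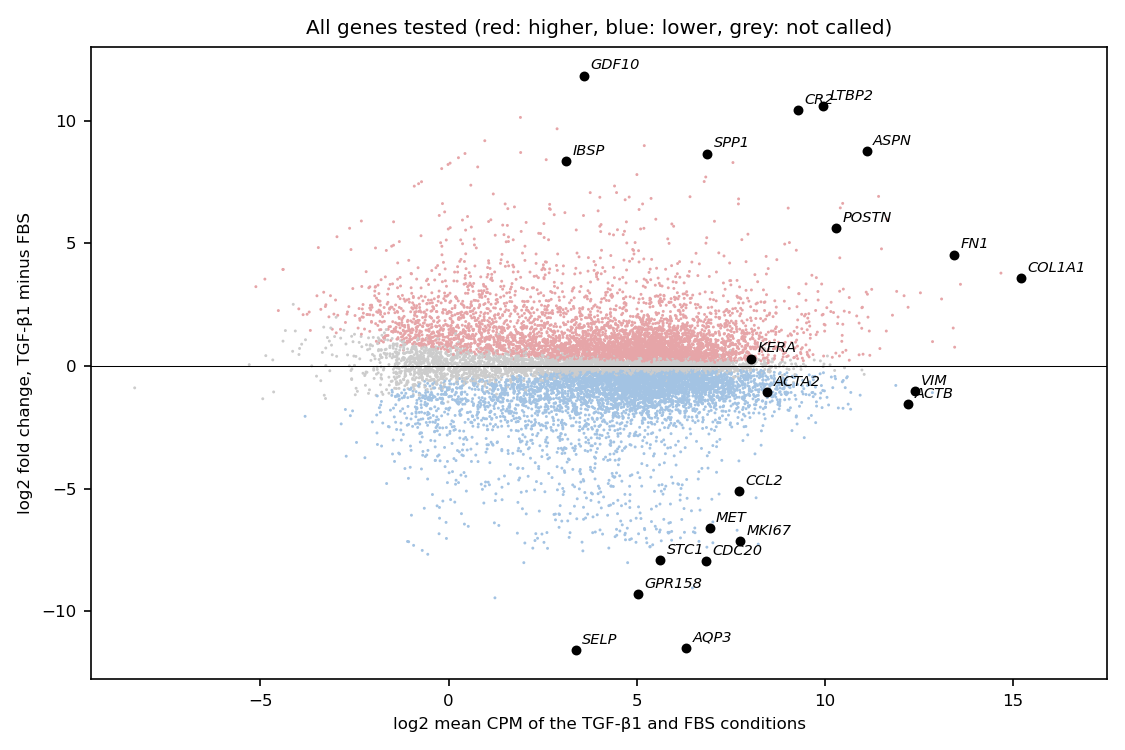
Each point is 1 of the tested genes with counts in either condition. The horizontal axis is log2 of the mean CPM of the conditions, the vertical axis the log2 fold change of TGF-β1 over FBS, and named genes are in black. Points spread to both sides of 0 over the whole range of expression, COL1A1 (3.57) and FN1 (4.54) lie at the right end, and the values of GDF10 and SELP, which have no counts in 1 condition, depend on the prior count of the fit.

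The markers given for this comparison separated the conditions without overlap. FN1 encodes fibronectin, a glycoprotein on which cells assemble and hold matrix. FN1 had 15900, 21380 and 26280 CPM as its lowest, median and highest TGF-β1 library and 694, 811 and 1256 CPM in FBS. Every TGF-β1 library lay above every FBS library, a difference of 23.3-fold (log2 fold change 4.54, SE 0.17, edgeR adjusted p = 1.7e-18), and serum-free cultures lay between at a mean of 5289 CPM. COL1A1 had 61680, 71010 and 76030 CPM with TGF-β1 and 4185, 5572 and 7718 CPM with FBS (3.57, SE 0.16, adjusted p = 6.94e-17). The serum-free mean of COL1A1 was 63480 CPM, so on this gene the FBS libraries were the group that stood apart. ASPN encodes asporin, a small proteoglycan of the matrix that can bind collagen. ASPN ran over 2698, 4265 and 7314 CPM with TGF-β1 and 6.7, 8.4 and 15.3 CPM with FBS, a 439-fold difference (8.78, SE 0.30, adjusted p = 5.52e-19). In the sets ASPN had 9.69 and 7.81. MKI67 encodes the proliferation antigen Ki-67, present in cells that are in the cell cycle. It ran over 1.73, 2.34 and 6.05 CPM with TGF-β1 and 195, 448 and 599 CPM with FBS, a 140-fold difference in the other direction (-7.13, SE 0.62, adjusted p = 7.78e-11). In bulk RNA, fewer cells of a kind and less RNA per cell cannot be told apart, for this gene and for all others. The deposited table places its genes on a build that the sources used here do not name. There, FN1 lies on chromosome 7 at 156703386 to 156770768, COL1A1 on chromosome 19 at 37474894 to 37490691 and ASPN on chromosome 1 at 70308159 to 70332292.

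The contractile markers that define a myofibroblast did not follow the labels in the same way. ACTA2 encodes α-smooth muscle actin, the usual myofibroblast marker. It had 115, 202 and 403 CPM with TGF-β1 and 247, 482 and 722 CPM with FBS. The groups overlapped and the call was lower with TGF-β1 (-1.05, SE 0.37, adjusted p = 0.0127), with -1.02 in the first set and -1.15 in the second. Within each set the groups did not overlap. Both conditions were far above the serum-free mean of 2.92 CPM. TAGLN, the actin-binding protein transgelin, had 280, 352 and 627 CPM with TGF-β1 and 157, 262 and 356 CPM with FBS. It missed the threshold (0.67, SE 0.31, adjusted p = 0.0531), but passed when only the 16 libraries were fitted (0.671, adjusted p = 0.0062). TAGLN passed with the replicate number as a block (0.68, adjusted p = 0.00597), in each set alone (0.71 and 0.60), and when any of TGF-β1 replicates 5 to 8 or FBS replicates 3 and 4 was left out (0.718 to 0.747, adjusted p of 0.0416 to 0.0489). For the fibroblast label, the filament protein VIM was lower with TGF-β1 (-1.02). THY1, a surface glycoprotein often used for fibroblasts, was called higher (0.87, adjusted p = 0.00908) but had 2.39 in the first set and -0.21 in the second, and it lost the call when libraries were scaled by total counts. The word myofibroblast is therefore used below only as the label of the TGF-β1 cultures.

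**Figure D2:**
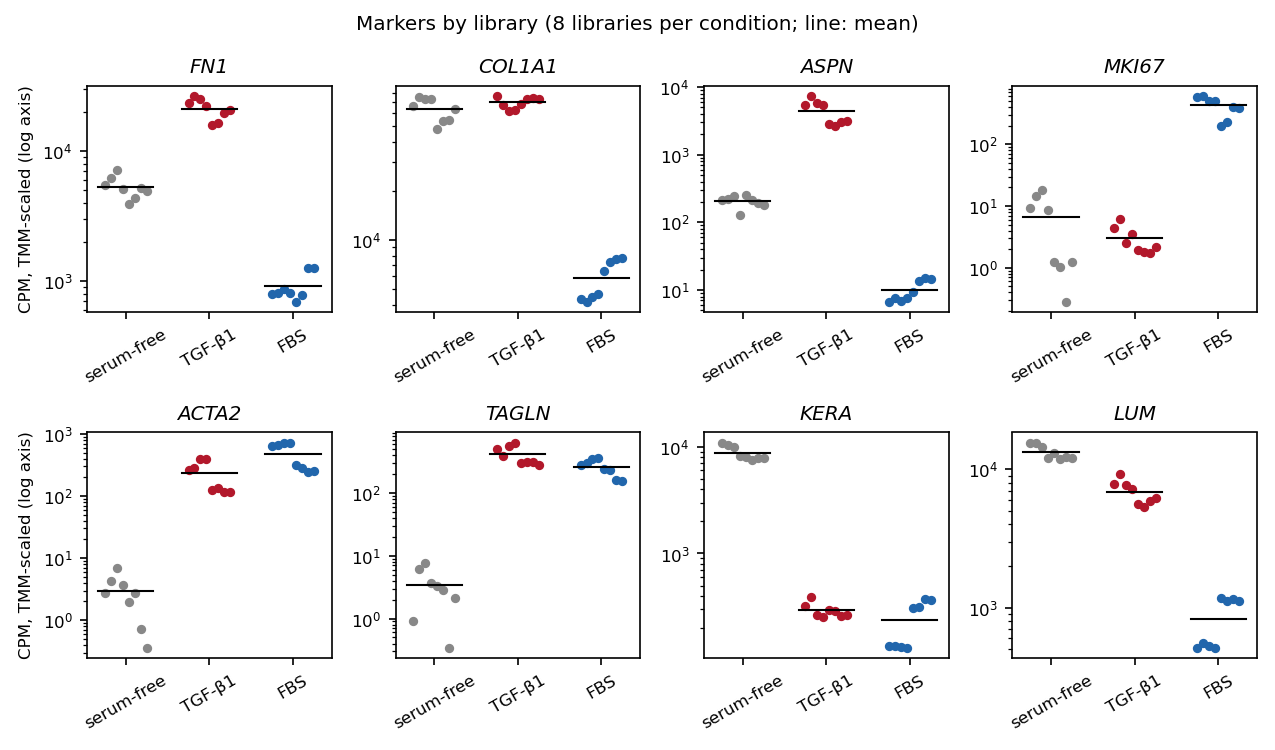
Each panel shows 1 gene, each point 1 library, and each line the mean of 8 libraries, in CPM on a log axis, with library numbers 5 to 12 from left to right within a condition. FN1, COL1A1, ASPN and LUM are higher in every TGF-β1 library than in any FBS library and MKI67 lower, whereas ACTA2, TAGLN and KERA overlap over all 16 libraries. Within each library set, every TGF-β1 library lies below every FBS library for ACTA2 and above for TAGLN, while KERA changes direction between the sets.

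Collagen genes lay mostly on the TGF-β1 side. Of 26 collagen chains tested, 23 (88.5%) were higher with TGF-β1 against 36.9% of all genes, 1 was lower and 2 were not called. The median log2 fold change was 1.86 (2.14 in the first set and 1.82 in the second). In 20 of the 26 every TGF-β1 library lay above every FBS library, against 22.4% of all genes. Summed over the list, collagen RNA amounted to 168500 to 201000 CPM per TGF-β1 library and 19400 to 26430 CPM per FBS library. Serum-free libraries held 142300 to 215000 CPM. Against serum-free cultures, the median log2 fold change of the list was 0.318 with TGF-β1 and -2.47 with FBS. On the deposited FPKM scale, which is per length and so allows genes to be set side by side, COL1A1 (mean 14630 with TGF-β1 and 1224 with FBS) and COL1A2 (10410 and 750) led in both conditions. The chains that copolymerise with type I collagen and set fibril diameter were higher too. COL5A1 differed by 8.06-fold (3.01, SE 0.18), COL5A2 by 6.65-fold (2.73, SE 0.13) and COL11A1 by 63.7-fold. COL11A1 had 4828, 6337 and 7795 CPM with TGF-β1 and 75.9, 102 and 116 CPM with FBS (5.99, SE 0.28, adjusted p = 1.9e-16). This chain is better known from cartilage, as is COL2A1, which was low in level but differed by 118-fold (mean 32.2 ± 8.65 CPM against 0.261 ± 0.143).

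COL7A1, the collagen of the anchoring fibrils under epithelia, had 235, 262 and 364 CPM with TGF-β1 and 8.46, 11.9 and 13.7 CPM with FBS, a 24.5-fold difference (4.61, SE 0.21, adjusted p = 1.17e-16). COL8A1, a short-chain collagen of Descemet's membrane, was 8.73-fold higher, and COL10A1, known from hypertrophic cartilage, 12.2-fold. Fibril-associated collagens were also higher, COL14A1 by 7.61-fold and COL12A1 by 2.92-fold. Type VI collagen, which forms beaded filaments between fibrils and is abundant in the stroma, was higher by 2.01-fold for COL6A1 and 3.36-fold for COL6A3. Serum-free libraries ran over 5399 to 6307 CPM for COL6A1 and 6912 to 11340 CPM for COL6A3, above every TGF-β1 library. COL3A1, often taken as a wound collagen, was low in both groups. It had 39, 53.9 and 70.6 CPM with TGF-β1 and 8.18, 19.6 and 37.9 CPM with FBS, with a log2 fold change of 1.35 (2.13 and 0.97 in the sets). On the FPKM scale its mean of 9.91 with TGF-β1 was far below the 14630 of COL1A1. Only COL15A1, a basement membrane zone collagen, was called lower (-0.52, adjusted p = 0.0206), and it lost that call without FBS replicate 7, without FBS replicates 5 and 6 together and in the first set. COL4A2 (-0.16) and COL18A1 (0.46), both of basement membranes, were not called and had opposite signs in the sets. Without FBS replicate 5, COL18A1 passed (0.63, adjusted p = 0.0313).

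Enzymes that modify and crosslink collagen were mostly higher. Of 29 tested, 26 were higher with TGF-β1 and 2 lower (median 1.40, 1.30 and 1.47 in the sets). PLOD2 hydroxylates the lysines in collagen telopeptides, a step towards hard-to-cleave crosslinks. It had 640, 777 and 990 CPM with TGF-β1 and 33, 40.9 and 45.2 CPM with FBS, a 20.2-fold difference without overlap (4.34, SE 0.13, adjusted p = 7.38e-20). TGM2, a transglutaminase that crosslinks matrix proteins, was 18.4-fold higher, ADAMTS2, which removes the N-propeptide of procollagen, 13.5-fold, and the prolyl hydroxylase subunit P4HA3 6.51-fold. Among the lysyl oxidases the members differed in direction. LOXL2 was 4.39-fold higher (2.13), LOX only 1.35-fold (0.44, adjusted p = 0.000209), and LOXL4 was 2.71-fold lower (-1.44, SE 0.19). The call of LOX was lost when libraries were scaled by total counts. P3H2, a prolyl 3-hydroxylase known for basement membrane collagens, was 4.7-fold lower at a low level (1.53 ± 0.304 against 7.24 ± 1.26 CPM).

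The small leucine-rich proteoglycans, which coat collagen fibrils and regulate their spacing, gave the highest median of the matrix lists. Of 13 tested, 11 were higher with TGF-β1, none was lower and 2 were not called (median 3.70, 4.33 in the first set and 3.00 in the second). PRELP, which links collagen to basement membranes, had 4299, 5572 and 6378 CPM with TGF-β1 and 19.6, 43.5 and 72.9 CPM with FBS. FMOD, fibromodulin, had 2467, 2847 and 3252 CPM with TGF-β1 and 20.4, 25.8 and 41.9 CPM with FBS. In both genes the groups lay far apart, by 121-fold for PRELP (6.92, SE 0.40, with 7.84 and 6.47 in the sets) and 99.2-fold for FMOD (6.63, SE 0.17, adjusted p = 1.29e-21). CHAD, chondroadherin, a cell-binding protein of cartilage, differed by 209-fold, and ECM2 by 113-fold with 8.27 in the first set and 5.94 in the second. Decorin (DCN, 5.26-fold, 3.11 and 1.78 in the sets) and biglycan (BGN, 4.21-fold) were higher by less. Their serum-free means lay on opposite sides. DCN had 23510 CPM in serum-free cultures, 7979 with TGF-β1 and 1517 with FBS, while BGN had 367, 5752 and 1368 CPM in the same order.

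The corneal members of this family are the ones used to recognise keratocytes. LUM, lumican, had 5290, 6688 and 9236 CPM with TGF-β1 and 510, 837 and 1166 CPM with FBS (3.04, SE 0.20, adjusted p = 2.78e-13), with 3.92 in the first set and 2.33 in the second. OGN, osteoglycin or mimecan, was 13-fold higher with TGF-β1 (3.70, with 4.33 and 3.00 in the sets), yet its TGF-β1 mean of 1498 CPM compared with 25500 in serum-free cultures. KERA, keratocan, the most restricted to the cornea, was not called over all 16 libraries. It had 253, 278 and 390 CPM with TGF-β1 and 130, 224 and 372 CPM with FBS (0.30, SE 0.21, adjusted p = 0.195), against 8807 CPM in serum-free cultures. KERA passed in each set alone but in opposite directions, with 1.20 in the first (adjusted p = 1.56e-08) and -0.30 in the second (adjusted p = 0.00318), and its sign also turned when libraries were scaled by total counts (-0.09). EPYC, epiphycan, missed the threshold as well (0.79, adjusted p = 0.0504), with 2.31 in the first set and 0.24 in the second. EPYC passed with the replicate block (0.97, adjusted p = 0.00552), and also when any 1 of TGF-β1 replicates 1, 3 and 4 or FBS replicates 5 to 8 was left out (0.829 to 0.997), and it passed in each set alone.

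Of 17 keratocyte markers tested, 9 were higher with TGF-β1, 3 lower and 5 not called (median 0.42), shares of 52.9% and 17.6%. Within the sets the counts were 14 higher and 3 lower in the first and 9 and 6 in the second, and with scaling by total counts 7 and 6. AQP1, a water channel of keratocytes and endothelium, was 6.46-fold higher with TGF-β1 (1568 ± 145 against 243 ± 73.3 CPM, 3.27 and 2.21 in the sets). B3GNT7, an enzyme that extends keratan sulfate chains, was 19.2-fold higher (4.26, with 5.02 and 3.24 in the sets). CD34, a surface sialomucin of quiescent keratocytes, was 2.13-fold lower (-1.09, adjusted p = 4.68e-12), at 6.12 CPM with TGF-β1, 13 with FBS and 240 in serum-free cultures. The lactate transporter SLC16A1 was 1.92-fold lower. ALDH1A1, a crystallin of rabbit keratocytes, was not called (-0.18). It passed in each set alone in opposite directions, with 0.39 in the first (adjusted p = 3.58e-05) and -0.60 in the second (adjusted p = 3.21e-07), and under scaling by total counts (-0.57, adjusted p = 0.00174). ALDH3A1 was not analysed here.

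**Figure D3:**
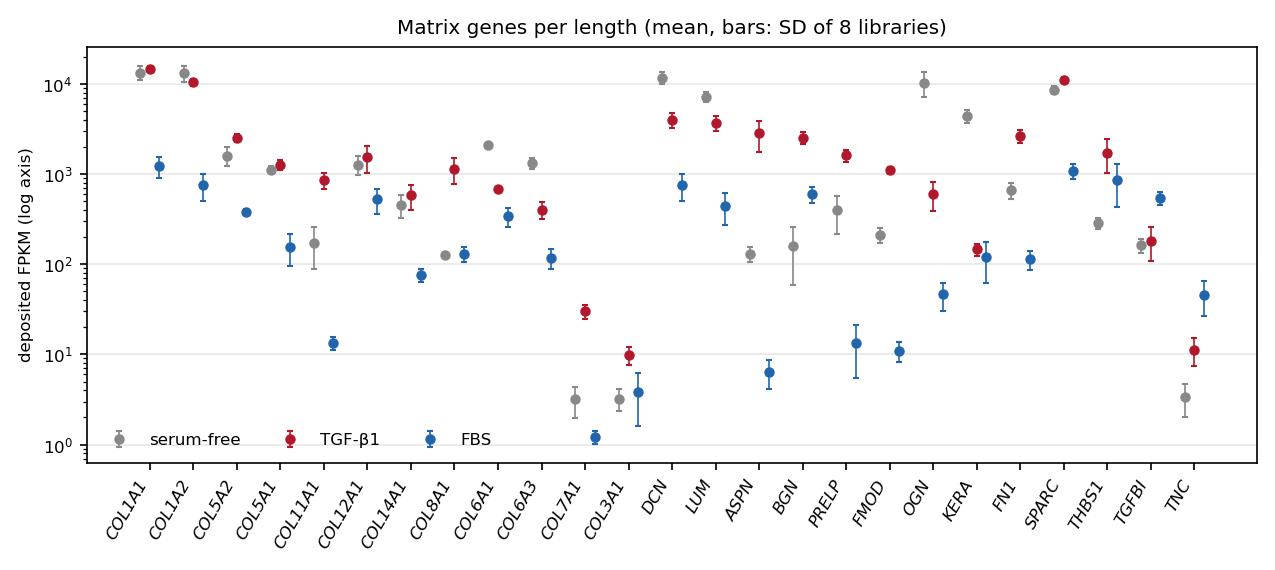
Points are means and bars the SD of 8 libraries on the deposited FPKM scale (log axis) for the matrix genes on the horizontal axis, in serum-free, TGF-β1 and FBS cultures. COL1A1 and COL1A2 lead with TGF-β1, FBS points lie below the TGF-β1 points for most genes, the KERA bars of those groups overlap, and TGFBI and TNC lie higher with FBS.

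Matrix glycoproteins were mostly higher, with clear exceptions. Of 37 tested, 28 were higher with TGF-β1 and 6 lower (median 1.98, 2.09 and 1.73 in the sets). LTBP2 encodes a microfibril protein of the family that binds latent TGF-β. It had 1646, 1997 and 2267 CPM with TGF-β1 and 0.594, 1.19 and 2.08 CPM with FBS. The groups lay far apart, with a fitted difference of 1567-fold (10.61, SE 0.24, adjusted p = 2.17e-22). Serum-free cultures held 3.48 CPM of LTBP2. POSTN, periostin, a matricellular protein of wound healing, had 1620, 2313 and 3438 CPM with TGF-β1 and 31.3, 54.5 and 59 CPM with FBS (5.62, SE 0.30). The microfibril and elastic fibre genes MFAP4 (32.8-fold), ELN (26.4-fold, 5.94 and 4.15 in the sets) and FBN1 (3.98-fold) were higher, as were the proteoglycan VCAN (32-fold, 5.69 in the first set and 3.56 in the second) and SPARC (10.1-fold), a collagen-binding protein. CILP, a cartilage intermediate layer protein, had 1843 counts over the TGF-β1 libraries and 2 over the FBS libraries, a ratio of 1290 (95% binomial interval 357 to 10700, counting error only).

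Those lower were TGFBI, TNC, EFEMP1, NID2, LAMB1 and TNXB, the last by 1.9-fold. TGFBI, a cell-binding matrix protein whose name records induction by TGF-β and whose mutations cause corneal dystrophies, was lower with TGF-β1. It had 326, 544 and 788 CPM with TGF-β1 and 1351, 1642 and 1990 CPM with FBS, without overlap (-1.59, SE 0.19, adjusted p = 4.68e-08). Serum-free cultures, at 491 CPM, lay near the TGF-β1 level. TNC, tenascin-C, was 4.11-fold lower with TGF-β1 (-3.04 in the first set and -0.95 in the second). EFEMP1, a fibulin, had 0.39, 0.836 and 1.91 CPM with TGF-β1 and 63.6, 112 and 163 CPM with FBS, 110-fold lower (-6.79, SE 0.34, with -5.71 and -7.78 in the sets). NID2 (2.7-fold lower) and LAMB1 (2.27-fold lower) belong to basement membranes. THBS1, thrombospondin-1, which can release TGF-β from its latent form, was 1.99-fold higher with overlap (0.99, adjusted p = 0.00204), and lost its call when libraries were scaled by total counts.

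Of 34 matrix proteases and their inhibitors, 22 were higher with TGF-β1 and 9 lower (median 1.25, 1.18 and 0.90 in the sets). MMP2, gelatinase A, had 9983, 10670 and 11100 CPM with TGF-β1 and 947, 1335 and 1754 CPM with FBS (2.98, SE 0.19, adjusted p = 1.61e-13). Its membrane-bound activator MMP14 was 7.72-fold higher, the fibroblast activation protein FAP 10.2-fold and MMP11 20.6-fold. MMP1, an interstitial collagenase, was low but differed by 85.5-fold (5.9 ± 4.81 against 0.0608 ± 0.072 CPM), with 4.15 in the first set and 7.86 in the second. Lower with TGF-β1 were the urokinase gene PLAU (5.14-fold), its receptor PLAUR (2.81-fold) and MMP19 (4.7-fold).

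Genes of the TGF-β family and its intracellular carriers were mostly higher in the TGF-β1 cultures. Of 42 ligands, receptors, binding proteins and SMADs tested, 29 were higher and 8 lower (median 1.05, 0.94 and 1.03 in the sets). Among ligands, TGFB3 had 529, 674 and 799 CPM with TGF-β1 and 17.1, 29 and 48 CPM with FBS, 22.2-fold higher (4.47, SE 0.23, adjusted p = 1.6e-15). TGFB2 was 2.32-fold higher. TGFB1 itself was 1.62-fold higher with overlap (0.70, adjusted p = 0.000526), a call lost under scaling by total counts. BMP6 was 22.7-fold higher (5.70 in the first set and 3.49 in the second) and the activin subunit INHBA 2.91-fold lower, the latter with -2.01 in the first set and -0.14 in the second.

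The receptor genes moved in opposite directions. TGFBR1, the signalling type I receptor, had 246, 262 and 290 CPM with TGF-β1 and 49.8, 75.9 and 82.1 CPM with FBS (1.86, SE 0.08, adjusted p = 1.34e-16). TGFBR2, the ligand-binding type II receptor, had 221, 251 and 267 CPM with TGF-β1 and 450, 547 and 710 CPM with FBS (-1.20, SE 0.10, adjusted p = 5.67e-11). Neither gene overlapped between the groups. The co-receptor ENG, endoglin, was 4.31-fold higher and LRRC32, which holds latent TGF-β at the cell surface, 6.7-fold. SMAD3 was 3.3-fold higher. Of the extracellular BMP antagonists, CHRD, chordin, was 17.9-fold higher while NOG, noggin, was 2.12-fold lower.

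Targets of TGF-β signalling were on average higher, with 15 of 23 higher and 4 lower (median 1.16, 1.13 and 1.41 in the sets). The feedback inhibitors PMEPA1 (6.77-fold), SMAD7 (2.19-fold) and SKIL (2.04-fold) were higher without overlap. CDKN2B, which encodes the cyclin-dependent kinase inhibitor p15, had 37.6, 47.5 and 67.6 CPM with TGF-β1 and 0.179, 0.43 and 0.841 CPM with FBS, 110-fold higher (6.78, SE 0.31, with 7.64 and 6.05 in the sets). CTGF, a matricellular protein, had 3606, 4482 and 5898 CPM with TGF-β1 and 1114, 1651 and 2488 CPM with FBS (1.43, SE 0.24, adjusted p = 9.62e-06). The metalloprotease ADAM12 (7.73-fold) and the NADPH oxidase NOX4 (5.34-fold) were higher as well. CYR61 was not called (0.41, adjusted p = 0.191), though it passed in each set alone (0.52 and 0.25) and when only the 16 libraries were fitted.

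BMP targets lay on the FBS side. Of 8 tested, none was higher with TGF-β1 and 6 were lower (median -2.26, -2.04 and -1.68 in the sets), and 4 more genes of the list had too few counts. None of the 8 had a positive value, so none was higher at an unadjusted p under 0.05 either, and DESeq2 called none higher. Without the filter on low counts, 8 of 12 were lower and 1 higher (median -1.77). Of the genes with too few counts, DLX5 had none in either group. MSX1 had 1 count over the TGF-β1 libraries and 91 over the FBS libraries, and HEY1 had 4 and 25. Both were lower with TGF-β1 without the filter (-5.2 and -2). ID4, in the other direction, had 104 counts over the TGF-β1 libraries and 8 over the FBS libraries. It entered the test as a ninth member, and was higher, in the second set (3.22, adjusted p = 0.00114), without TGF-β1 replicate 2 and without any 1 of the 8 FBS libraries. The list's median was then -1.60 to -1.37 with 1 library left out, and -1.20 without FBS replicates 5 and 6 together. The ID genes encode inhibitors of helix-loop-helix factors. ID1 had 35.3, 51.3 and 60.5 CPM with TGF-β1 and 307, 395 and 564 CPM with FBS, 8.24-fold lower (-3.04, SE 0.24, adjusted p = 1.09e-11). ID2 was 12.8-fold lower, ID3 2.85-fold and the transcription factor ATOH8 23.5-fold. SMAD9, one of the BMP-pathway SMADs, was 8.08-fold lower (-4.22 in the first set and -2.34 in the second), and the inhibitory SMAD6 1.96-fold. MSX2 (-0.07) and BAMBI (-0.15) were not called. In serum-free cultures ID1 stood at 19.9 CPM, ID2 at 0.318 and ID3 at 4.67, below both other conditions.

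**Figure D4:**
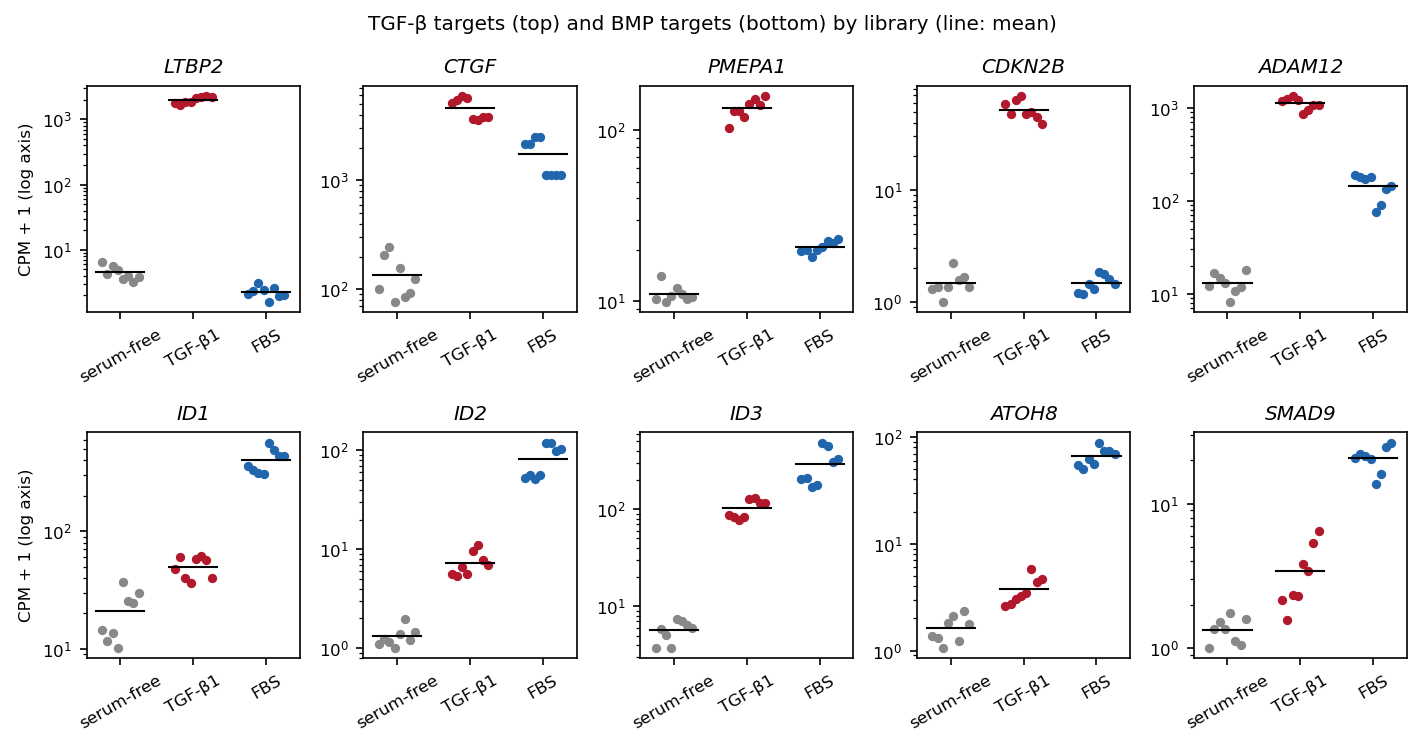
Each panel shows 1 gene and each point 1 library as CPM + 1 on a log axis, with TGF-β targets above and BMP targets below. LTBP2, CTGF, PMEPA1, CDKN2B and ADAM12 are higher in every TGF-β1 library than in any FBS library, while the 5 BMP targets are lower in every one.

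Contractile and cytoskeletal genes showed no common direction. Of 25 tested, 8 were higher with TGF-β1 (32%) and 11 lower (44%), with a median of -0.17, and -0.36 in each set alone. Scaling by total counts gave 4 higher and 16 lower. The actin-binding FHL2 had 25.6, 35.1 and 41.2 CPM with TGF-β1 and 168, 195 and 237 CPM with FBS (-2.51, SE 0.11, adjusted p = 4.16e-17), and TAGLN2 was 5.57-fold lower. Tropomyosin TPM4 (-1.14), nonmuscle myosin MYH9 (-0.59) and α-actinin ACTN1 (-0.96) were lower. On the other side, the myosin MYH10 was 2.26-fold higher and KCNMB1, a potassium channel subunit of smooth muscle, 10.4-fold. ACTG2 (0.80), CALD1 (0.42) and TPM1 (0.34) were called higher, but none kept its call when libraries were scaled by total counts, and TPM1 then had -0.06. ACTG2 also lost its call in the second set. MYL9, the regulatory light chain, was not called (-0.24), with 0.23 in the first set and -0.85 in the second. ACTB, β-actin, was 2.96-fold lower with TGF-β1 (2418 ± 524 against 7143 ± 551 CPM). It was lower under every scaling tried, as was the median of 16 housekeeping genes (-0.67), of which 11 were lower and 2 higher.

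Of 31 integrins and adhesion genes, 13 were higher and 15 lower (median -0.10). The individual subunits differed strongly. ITGA11, part of a receptor for fibrillar collagen, had 2250, 2526 and 2906 CPM with TGF-β1 and 98.2, 119 and 145 CPM with FBS (4.41, SE 0.11, adjusted p = 9.25e-22). ITGAV (2.7-fold) and ITGB3 (2.18-fold), subunits of receptors for fibronectin and vitronectin, were higher too. The fibronectin receptor subunit ITGA5 was 1.75-fold lower, the laminin receptor subunits ITGA3 2.96-fold and ITGA6 29.9-fold lower. ITGA6 had 1.61, 2.21 and 2.86 CPM with TGF-β1 and 21.3, 69.9 and 112 CPM with FBS (-5.52 in the first set and -3.65 in the second). The focal adhesion protein ZYX was 1.98-fold lower and the hyaluronan receptor CD44 2.1-fold lower.

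Genes of cell division separated the conditions completely. All 38 mitotic genes tested were at least 2-fold lower with TGF-β1 and without overlap, against 17.6% and 23.8% of all genes (median -6.47, -6.24 and -6.65 in the sets). The same held for all 39 DNA replication genes (median -4.85, -4.85 and -4.32). CDC20, which activates the complex that ends mitosis, had 0.325, 0.817 and 1.51 CPM with TGF-β1 and 202, 225 and 275 CPM with FBS, 251-fold lower (-7.97, SE 0.42). Cyclin B1 (CCNB1) was 168-fold and its kinase CDK1 138-fold lower, and the topoisomerase TOP2A 82.2-fold. The smallest difference of the mitotic list was that of securin, PTTG1, 9.25-fold lower. Summed, mitotic RNA amounted to 54.1 to 113 CPM per TGF-β1 library, 3721 to 5559 per FBS library and 47.2 to 235 per serum-free library. The TGF-β1 range thus lay inside the serum-free range.

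Among replication genes, the helicase subunit MCM5 had 0.657, 1.28 and 2.27 CPM with TGF-β1 and 170, 192 and 253 CPM with FBS, 142-fold lower (-7.15, SE 0.31, adjusted p = 5.48e-17). The repressor E2F8 was 186-fold lower and the ribonucleotide reductase subunit RRM2 104-fold. PCNA, the sliding clamp, which also serves in repair, was 7.97-fold lower (33 ± 2.81 against 263 ± 17.2 CPM), and thymidylate synthase TYMS, the smallest difference of the list, 2.85-fold.

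Cell cycle regulators, with brakes and drivers listed together, had members on both sides. Of 13 cyclin-dependent kinase inhibitors, D-type cyclins and pocket proteins, 5 were higher and 8 lower (median -0.69). CDKN1A, which encodes p21, had 959, 1277 and 1445 CPM with TGF-β1 and 171, 199 and 214 CPM with FBS (2.68, SE 0.23, adjusted p = 4.19e-11), and 124 CPM in serum-free cultures. Together with CDKN2B it led the higher side, while the inhibitor CDKN2C, p18, was 9.76-fold lower. CDK4, a cyclin-dependent kinase and not an inhibitor, was 2.7-fold lower. The cyclin CCND2 was 1.34-fold higher (0.42), a call lost under scaling by total counts. Among 22 p53 target genes, 16 were higher and 4 lower (median 0.97, 0.80 and 0.95 in the sets). BBC3, the pro-apoptotic PUMA, was 6.36-fold higher at a low level (10.4 ± 2.27 against 1.64 ± 0.816 CPM). The death receptor FAS (10.4-fold) and the kinase PLK2 (9.55-fold) were lower.

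Genes for making ribosomes were lower with TGF-β1 without exception in the list. All 25 genes of ribosome biogenesis and MYC were lower, 21 of them at least 2-fold (median -1.64, -1.77 and -1.49 in the sets). MYC, the transcription factor that drives this programme, had 35.8, 45.1 and 49.3 CPM with TGF-β1 and 138, 157 and 190 CPM with FBS (-1.89, SE 0.13, adjusted p = 5.64e-13). Nucleolin (NCL) was 4.38-fold lower and the rRNA methyltransferase fibrillarin (FBL) 5.85-fold, while GNL3 differed by 1.35-fold. Of 23 respiratory chain genes, 20 were lower and 1 higher (median -0.70, -0.46 in the first set and -0.97 in the second), but only 5 of the 20 by at least 2-fold. ATP5A1, a subunit of ATP synthase, was 2.29-fold lower (-1.20, SE 0.08). NDUFA1, of complex I, was the 1 called higher (0.55, adjusted p = 0.0233), and it lost that call in the second set, under scaling by total counts and without FBS replicate 1 or 2 (adjusted p of 0.0529 and 0.0524).

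Lipid synthesis lay on the TGF-β1 side. Of 22 genes of cholesterol synthesis and uptake, 17 were higher and 1 lower (median 0.97, 1.33 in the first set and 0.45 in the second), with 13 and 3 in the second set and 11 and 1 under scaling by total counts. INSIG1, the sterol-sensing brake on this pathway, had 785, 931 and 1180 CPM with TGF-β1 and 75.6, 105 and 125 CPM with FBS (3.21, SE 0.32, adjusted p = 1.24e-09). TM7SF2 was 15.4-fold higher, with 5.87 in the first set and 2.14 in the second. Of 13 fatty acid synthesis genes, 12 were higher and 1 lower (median 1.85, 1.77 and 1.67 in the sets). ACSS2, which makes acetyl-CoA from acetate, differed by 22.4-fold (306 ± 81.9 against 13.7 ± 4.9 CPM, 5.30 and 3.71 in the sets), the master regulator SREBF1 by 8.11-fold and ATP-citrate lyase ACLY by 4.31-fold. ELOVL6, an elongase, was 2.78-fold lower. How much of this moves with the lipids of serum itself was not tested.

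Lipid storage and oxidation genes had no common direction (10 of 24 higher and 9 lower, median -0.02), but held genes that differed widely between the library sets. PDK4, a kinase that shuts pyruvate out of the citric acid cycle, had 0.511, 50.2 and 122 CPM with TGF-β1 and 0.0515, 0.504 and 0.769 CPM with FBS. The groups overlapped, and the log2 fold change was 1.03 in the first set and 7.97 in the second (pooled 6.89, SE 1.21). ANGPTL4, a secreted inhibitor of lipoprotein lipase, was likewise at 3.01 and 7.22. ABCA1, a cholesterol exporter, was 19.1-fold higher. PPARG, the adipogenic nuclear receptor, was at 0.117 ± 0.0708 CPM with TGF-β1 and 5.24 ± 1.07 with FBS, 43.9-fold lower.

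Insulin-like growth factor and FOXO genes were higher in 17 of 21 cases and lower in 4 (median 1.79, 1.78 and 1.75 in the sets). IGF1 had 71.6, 159 and 297 CPM with TGF-β1 and 0.297, 1.26 and 2.82 CPM with FBS, 120-fold higher (6.90, SE 0.56, adjusted p = 1.68e-11). The binding protein IGFBP2 was 27.4-fold higher and IGFBP4 5.02-fold lower. Genes known to be induced by FOXO factors when insulin signalling is low included PIK3IP1 (48.2-fold higher) and INSR (4.29-fold), and FOXO1 itself was 4.06-fold higher. TXNIP was 2.9-fold lower. In glycolysis 11 of 21 genes were higher and 7 lower (median 0.36, but -0.04 under scaling by total counts). The glucose transporter SLC2A1 had 167, 180 and 205 CPM with TGF-β1 and 20.1, 24 and 25.7 CPM with FBS (2.94, SE 0.07, adjusted p = 9.25e-22). LDHA was 3.25-fold higher, while ENO1 (2.28-fold) and PGAM1 (2.59-fold) were lower.

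Genes better known from bone, cartilage and tendon were higher in 14 of 16 cases tested and lower in 2 (median 3.50, 2.96 and 3.73 in the sets), and 9 more genes of the list were not tested, most for too few counts. SPP1, osteopontin, had 193, 235 and 262 CPM with TGF-β1 and 0.257, 0.584 and 1.06 CPM with FBS, 406-fold higher (8.66, SE 0.30, adjusted p = 8.82e-19). Serum-free cultures held 0.869 CPM of SPP1. IBSP, bone sialoprotein, was at 17.3 ± 13.4 against 0.0461 ± 0.0649 CPM and had no counts in serum-free cultures. Its log2 fold change was 7.02 in the first set and 8.76 in the second. MGP, an inhibitor of calcification, was 86.9-fold higher, with 8.02 in the first set and 5.85 in the second. The cartilage proteoglycan aggrecan (ACAN, 8.17-fold) and the cartilage factor SOX9 (4.3-fold) were higher. The ACAN difference was smaller in the first set (77 to 110.6 CPM with TGF-β1, 21.2 to 25.2 with FBS) than in the second (183.1 to 207.3 and 10.2 to 14.7 CPM). RUNX2, the master factor of osteoblasts, was 2.39-fold lower (-1.25, SE 0.07, adjusted p = 6.8e-15).

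**Figure D5:**
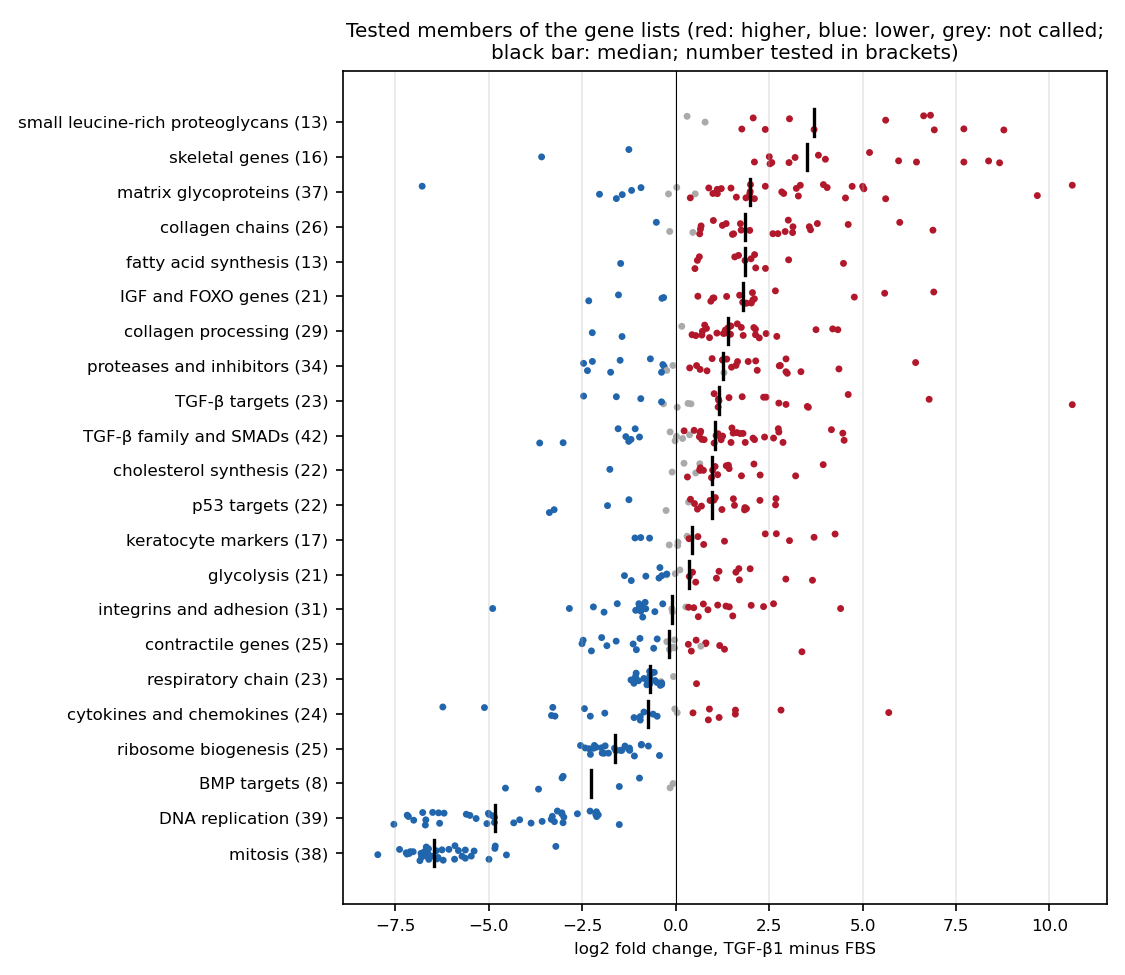
Each point is 1 tested gene of the list named at the left, at its log2 fold change of TGF-β1 over FBS, and black bars are list medians. The small leucine-rich proteoglycans (3.70) and skeletal genes (3.50) lie furthest to the TGF-β1 side, mitosis (-6.47) and DNA replication (-4.85) furthest to the FBS side, and contractile genes (-0.17) straddle 0.

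Secreted inflammatory signals were more often lower. Of 24 cytokine, chemokine and prostaglandin genes, 14 were lower with TGF-β1 (58.3%) and 8 higher (33.3%), with a median of -0.73 but 0.18 in the first set and -0.28 in the second, where the tested members differ. CCL2, a monocyte attractant, had 5.17, 13.1 and 16.5 CPM with TGF-β1 and 294, 413 and 519 CPM with FBS, 34.8-fold lower (-5.12, SE 0.23, adjusted p = 9.72e-17). The neutrophil attractant CXCL8 was 9.79-fold, IL1A 75.2-fold and the macrophage growth factor CSF1 9.4-fold lower. TNFRSF11B, osteoprotegerin, a decoy receptor, was 52-fold higher. Of 16 complement genes, 11 were higher and 1 lower (median 1.46, 1.98 and 0.93 in the sets). CR2, a complement receptor known from B cells and follicular dendritic cells, had 1046, 1276 and 1436 CPM with TGF-β1 and 0.0495, 0.874 and 1.87 CPM with FBS (10.45, SE 0.47, adjusted p = 9.39e-17), and 0.571 CPM in serum-free cultures. CR2 had 9.60 in the first set and 12.40 in the second. Clusterin (CLU) was 4.05-fold lower.

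Of 31 growth factors and receptors, 18 were higher and 7 lower (median 0.43). The HGF pair, which in the cornea links stroma and epithelium, was lower on both sides. MET, the receptor, had 1.53, 2.44 and 3.34 CPM with TGF-β1 and 114, 249 and 344 CPM with FBS, 97.9-fold lower (-6.61, SE 0.30, adjusted p = 1.17e-16), with -7.23 and -5.81 in the sets. HGF, its ligand, was 7.23-fold lower (6.72 ± 2.27 against 48.8 ± 7.84 CPM). VEGFA was 2.69-fold higher. KIT had 223 counts over the TGF-β1 libraries and 2 over the FBS libraries (ratio 156, 95% binomial interval 42.8 to 1300). In the hyaluronan list, HAS2, the main hyaluronan synthase of fibroblasts, had 2.6, 6.07 and 7.74 CPM with TGF-β1 and 144, 261 and 320 CPM with FBS, 43.3-fold lower (-5.44, SE 0.24, with -6.16 and -4.74 in the sets). Among 33 Wnt pathway genes, 20 were higher and 7 lower (median 0.91, 0.96 and 0.67 in the sets). The secreted inhibitor DKK1 was 116-fold lower and its relative DKK3 8.28-fold higher.

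The largest differences by the naming rule included genes of no list. GDF10, a ligand of the TGF-β family, had 3061 counts over the TGF-β1 libraries and none over the FBS libraries, at least 1430-fold higher with the FBS group set to a floor of 3 counts in all. RASGEF1C, a guanine nucleotide exchange factor, had 60.5, 71.2 and 89.6 CPM with TGF-β1 and 0, 0.0792 and 0.463 CPM with FBS. LRRC15, a membrane protein known from activated fibroblasts, was 315-fold higher (376 ± 48.5 against 1.2 ± 0.347 CPM), and the protease CORIN 224-fold. FBP2, a fructose bisphosphatase of muscle, had 950 counts against 2 (ratio 666, 95% binomial interval 184 to 5510). AOX3, an aldehyde oxidase, was at 12.1 ± 3.04 against 0.0309 ± 0.0874 CPM. In the other direction, AQP3, a water and glycerol channel, had 0, 0 and 0.219 CPM with TGF-β1 and 109, 162 and 207 CPM with FBS (-11.51, SE 0.32, adjusted p = 1.12e-20). SELP, P-selectin, had no counts in any TGF-β1 library and 3527 over the FBS libraries, at least 838-fold higher with FBS. The receptor GPR158 was 636-fold, the tetraspanin-like TM4SF1 260-fold and the secreted stanniocalcin STC1 244-fold lower with TGF-β1. The 12 largest falls also included CDC20, E2F8, RMI2, KIF18B, CCNB1, NEK2 and CKAP2L.

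Markers of other cell types were read for both groups, and their part in the differences was not tested. Of the epithelial list, KRT12, the corneal epithelial keratin, had 0 counts in all 16 libraries, and the summed list ran over 2.73 to 6.74 CPM with TGF-β1 and 11.2 to 19.2 CPM with FBS, most of it KRT19 and TP63. Of the corneal endothelial list, ZP4 and CLRN1 were at 0 in all 16 libraries. The leukocyte gene PTPRC stood at 0.0288 CPM with TGF-β1 and 0.0972 with FBS, while LAPTM5, also known from leukocytes, had a mean of 305 and 171 CPM and made up most of its list. Of the 5 immune markers tested, 1 was higher with TGF-β1 and 2 were lower (median -0.645). Those lower were CORO1A (0.166 against 5.18 CPM) and CD68 (6.63 against 18.3 CPM). ERG, a transcription factor of vascular endothelium, was 3.93-fold higher with TGF-β1 (236 ± 48.4 against 59.9 ± 8.43 CPM) and KDR 5.38-fold, both also present in serum-free cultures (195 and 305 CPM). All 5 vascular endothelial markers tested were higher with TGF-β1, against 36.9% of all genes (median 1.98). In the first set 4 of 5 were called higher and in the second 3 of 5. CDH5, among those tested, had 6.1 against 1.93 CPM. PECAM1, another endothelial marker, was not among them and stood at 0.283 and 0.679 CPM.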

How the data were processed

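The deposited count table holds 1 whole-number count per gene and library, and the authors' deposited FPKM table holds the same counts per gene length and scaled library size, per the file headers and values. For the aligner, counter, genome build and annotation: not given in the sources used here. Libraries were assigned by their deposited column names. Of 8020 genes listed only by number, 700 were given a symbol from the RefSeq table.

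The analysis ran on the counts, with edgeR 4.0.16 under R 4.3.3. The filterByExpr filter was applied by condition, TMM factors scaled the libraries, and the model took all 24 of them with 1 coefficient per condition. The TGF-β1 minus FBS contrast was tested by the quasi-likelihood F-test with Benjamini-Hochberg adjustment over all 13308 genes. A gene is called at an adjusted p under 0.05. CPM values use the TMM sizes. FPKM served for levels between genes and, as log2(FPKM + 1) or log2(FPKM + 0.1) with limma 3.58.1, as an alternative, as did DESeq2 1.42.0. The steps were also run on simulated counts with few changed genes and no library sets. That run therefore does not cover the many differences or the library sets of these data. Depth was 15410285 to 22528261 counts per library, and intervals and floors cover counting error only.

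The comparison, its members and the 44 gene lists (1053 genes, of which 85 were not found in the table and 112 had too few counts) were chosen with earlier results of these data known. Lists are described by counts and medians beside all genes, with no set test. Named genes are the markers, the 12 largest rises and 12 largest falls (called, without overlap, and with a mean of 5 CPM or more on the higher side), and in each list up to 5 called members per direction and 2 not called. Further list members were named after their values were seen, for their known roles: COL5A1, COL5A2, COL6A1, COL6A3, COL8A1, COL12A1, COL14A1, LOX, LOXL2, ELN, SPARC, THBS1, FBN1, DCN, BGN, ALDH1A1, TGFB1, TGFB2, TGFBR1, TGFBR2, ENG, SMAD3, SMAD6, SMAD7, SKIL, LRRC32, NOG, NOX4, CALD1, TPM1, TPM4, MYH9, ACTN1, MYL9, ITGAV, ITGB3, ITGA5, ZYX, MMP14, CDK1, TOP2A, PTTG1, RRM2, TYMS, PCNA, NCL, GNL3, FOXO1, ACAN, SOX9 and VEGFA, as well as the markers of other cells in the last paragraph. Some list members are counted but not reported here by name.

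The labels give both groups replicate numbers 1 to 8. Residuals of same-numbered TGF-β1 and FBS libraries correlated at 0.103 to 0.332 in the 8 pairs, and the number was also fitted as a block. Only group means were removed, so the difference between the library sets stays in these residuals. Same-numbered libraries also share a set, so the correlations cannot tell a shared number from a shared set. The best match of a library was its own number in 6 of 16 cases.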

Additional observations from a re-analysis of the deposited data

Results flagged for a closer look

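Of 500 groups of 8 libraries examined for named genes, 10 (2%) held 1 library far from the others by Dixon's criterion. Its rate by chance, about 1 in 20, is for independent, normally distributed values. The library sets can widen the range within a group, so the 2% cannot be set against that rate. All 10 are a single high library. FOXO1 reached 11.2 CPM in FBS replicate 3, with the other FBS libraries at 6.5 to 8.72. The remaining cases are at low levels. CILP was at 0.0855 CPM in FBS replicate 8 and AOX3 at 0.247 CPM in FBS replicate 5, where all other FBS libraries were at 0, and PTHLH at 0.214 CPM in FBS replicate 8. Among TGF-β1 libraries, E2F8 reached 0.52 CPM in replicate 1, HMMR 1.12 in replicate 2, DKK1 0.438 and WWC1 1.09 in replicate 4, KCNJ8 1.35 in replicate 5 and GPR158 0.286 in replicate 6.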

How the results depend on the processing

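Over 28 alternative settings and 250 genes (6998 values), 70 values changed their side of the threshold or their sign, 44 of them newly passing, 17 no longer passing and 9 reversed, and 228 genes kept both throughout. FN1, COL1A1, ASPN and MKI67 are among those 228. With total library size only, 3131 genes were higher and 6819 lower, 1649 and 3707 of them at least 2-fold (median of all genes -0.39), and log2(FPKM + 1) gave 1445 genes at least 2-fold higher. The pseudocount shrinks folds of low genes. The cause of the shift with total size was not tested. Reversed values were KERA (-0.0944) and TPM1 (-0.0618) with total library size, ALDH1A1 (0.386) and MYL9 (0.227) in library numbers 5 to 8, and KERA (-0.301), THY1 (-0.206), COL4A2 (0.241) and COL18A1 (-0.024) in numbers 9 to 12. BAMBI turned to 0.011 without FBS replicates 5 and 6. The replicate block gave 5243 genes higher and 5068 lower, and of the genes named it changed only the calls of TAGLN and EPYC. Leaving out 1 library at a time gave 4843 to 4995 genes higher, 4783 to 4865 lower, 2455 to 2570 at least 2-fold higher and 2329 to 2407 at least 2-fold lower. FBS replicates 1 and 2 were close (2.83 in squared count difference over counting variance), so leaving out 1 keeps its neighbour. Depth limits the genes given above with a floor or a counting interval, such as GDF10 and KIT.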

Other observations

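Several gene groups of stress and early signalling had members on both sides. Of all genes tested, 36.9% were higher with TGF-β1 and 36.4% lower, so members on both sides are not particular to the lists of this section. Of 27 genes of the amino acid starvation response, 13 were higher with TGF-β1 and 7 lower (median 0.11, but -0.28 under scaling by total counts, with 12 higher and 13 lower in the first set). ATF3, a transcription factor of the stress response, had 29, 33.5 and 36.7 CPM as its lowest, median and highest TGF-β1 library and 1.25, 2.56 and 3.03 CPM in FBS, without overlap (3.86, SE 0.20, edgeR adjusted p = 3.61e-15). The proline synthesis enzyme PYCR1 was 8.08-fold, the lipoprotein receptor VLDLR 7.51-fold and the mTORC1 inhibitor DDIT4 6.23-fold higher. CTH, which makes cysteine, and the amino acid transporter SLC7A5 were 2.84-fold and 2.38-fold lower. Of 23 genes of the unfolded protein response, 12 were higher and 8 lower (median 0.35, 6 and 11 under scaling by total counts). The chaperone partner DNAJB9 was 3.75-fold and EDEM1, which helps to clear misfolded glycoproteins, 2.39-fold higher, while SDF2L1 (3.61-fold) and MANF (2.24-fold) were lower. Of 29 immediate early genes, 11 were higher and 10 lower (median 0.10, 7 and 15 under scaling by total counts). EGR2 (18.9-fold) and FOS (3.03-fold) were higher, and FOSL1 (4.7-fold) and the ERK phosphatase DUSP5 (14.4-fold) lower. YAP targets were higher in 8 of 18 cases and lower in 4 (median 0.43, 4 and 6 under scaling by total counts), and F3, tissue factor, was 12.7-fold higher.

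Of 29 antioxidant genes, 11 were higher and 11 lower (median -0.07, but 0.10 and 0.13 in the sets). SOD3, an extracellular superoxide dismutase, was 6.84-fold higher, and the peroxidases GPX1 (5.05-fold) and PRDX1 (2.76-fold) were lower. Interferon response genes were higher in 9 of 22 cases and lower in 7 (median 0.06, 0.37 in the first set and -0.26 in the second), with IFI44L 11.6-fold higher and IFIT5 5.45-fold lower. Notch genes were higher in 3 of 7 cases and lower in 3, and the ligand JAG1 was 2.02-fold higher with overlap (0.36 in the first set and 1.78 in the second). Of 17 mesenchymal transcription factors, 6 were higher and 4 lower (median 0.06, -0.34 under scaling by total counts). MYOCD, a coactivator of smooth muscle genes, was low in both groups and 20.5-fold lower with TGF-β1 (0.0903 ± 0.0951 against 1.93 ± 1.2 CPM). Of 11 hyaluronan genes, 2 were higher and 6 lower (median -0.68, 0.06 without the filter on low counts). TNFAIP6, which crosslinks hyaluronan, was 18.1-fold and the hyaluronidase HYAL1 5.27-fold higher, and the hyaluronan receptor and spindle protein HMMR was 115-fold lower. Of the remaining marker lists, glial and melanocyte genes had 5 of 9 higher and 1 lower (3 and 3 in the first set, 8 and 1 in the second), pericyte and smooth muscle genes 3 of 6 lower and none higher (edgeR, none at an unadjusted p under 0.05 and none by DESeq2, but 1 in the first set), and adipocyte genes 1 of 3 in each direction. The summed level of these 3 lists was at most 17.7, 134 and 13.8 CPM in any TGF-β1 library and 14.5, 136 and 11.9 CPM in any FBS library. Their part in the differences was not tested.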
